A study of Mus musculus with 8 samples.

Results

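The genes of glycolysis and the pentose phosphate pathway were examined in cultured mouse hematopoietic stem and progenitor cells with and without added malonyl-CoA. The set was fixed by name and held 34 genes of the 48709 in the count files: 2 glucose transporters, 3 hexokinases, 7 genes of upper glycolysis, 8 of lower glycolysis, 4 of the lactate step and its export, 3 PFKFB enzymes and 7 of the pentose phosphate pathway. Reads were sufficient to test 32 of them. Eno2 and Pklr, the neuronal enolase and the liver and red cell pyruvate kinase, had at most 12 reads in any library and were left untested. Lineage-negative, Sca1-positive, cKit-positive bone marrow cells (HSPCs) of C57Bl/6J mice were seeded at 10000 per well and kept for 7 days in serum-free medium. In both groups the medium held 2 cytokines, stem cell factor (100 ng/ml) and Flt3 ligand (2 ng/ml), and part of it was exchanged after 3 or 4 days. In 1 of the 2 groups it also held malonyl-CoA at 100 µM, and controls had none. Each group had 4 libraries of total RNA, numbered 1, 3, 4 and 5, described in the design text as biological replicates. Since the labels do not say whether a number stands for a mouse, a pool or a culture, p-values measure only the spread between these samples. The libraries describe the progeny of the seeded cells after culture, not the cells as sorted.

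Glycolysis splits glucose into pyruvate in the cytosol. Transporters bring glucose in, hexokinase traps it as glucose 6-phosphate, phosphofructokinase commits it to breakdown, and pyruvate kinase releases the last ATP. The pentose phosphate pathway branches off at glucose 6-phosphate and yields NADPH, the reductant of fatty acid synthesis, and ribose for nucleotides. In bone marrow, quiescent stem cells are known to lean on glycolysis, and hypoxia-inducible factor is known to raise many glycolytic genes when oxygen is low. Malonyl-CoA is the chain-extending unit of fatty acid synthesis and blocks entry of fatty acids into mitochondria.

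Gene counts ranged from 17492085 to 22079844 per library. Kit, the stem cell factor receptor, stood at 204 to 320.1 CPM, and the granule enzyme Mpo at 6310 to 11880 CPM. CPM are counts scaled to a common library size, after correction of library sizes by the trimmed mean of M-values (TMM). Where 4 values of a gene follow each other, they are those of libraries 1, 3, 4 and 5 of a group, controls first. Marker lists of cell types were counted in the same way, and shares of list genes at an unadjusted p under 0.05 stand here against 5.43% higher and 4.1% lower of all genes tested. Shares of list genes without overlap between the groups stand against 3.21% of all genes tested above every control and 2.93% below. Granulocyte markers were lower by sign for 13 of 13 genes, 6 of them (46.2%) under that p, with summed levels of 13793 to 21621 CPM in control and 13841 to 17724 CPM with malonyl-CoA. Of 11 monocyte and macrophage markers tested, 8 were higher by sign and 3 (27.3%) under that p, Csf1r, Fcgr1 and Marco. Marco had the smallest p of all genes tested (unadjusted p = 1.15e-05, adjusted p = 0.146 by edgeR), and the summed levels of the list were 3481 to 4129 and 3721 to 4074 CPM. Mast cell and basophil markers were lower by sign for 6 of 8 genes tested, 3 (37.5%) of them under that p and without overlap (769.7 to 964.7 and 627.5 to 720.1 CPM summed). Of 11 stem and progenitor markers, 5 were higher and 6 lower by sign, with log2 fold changes of -0.55 to 1.14 and a median of -0.023. Under that p 3 (27.3%) were lower, Cd34 and Hlf without overlap (18.2%) and Myct1 with it. The summed levels of the list were 1174 to 1276 and 1080 to 1127 CPM. Of 14 erythroid markers, 7 had reads enough to test, led by Tfrc at a mean of 743 and 779.6 CPM. By sign 2 were higher and 5 lower, and Klf1 and Car1 (28.6%) were lower without overlap (782 to 905 and 815 to 894 CPM summed). Of 9 lymphoid markers, 3 were tested, Il7r at a mean of 56.2 and 52.7 CPM and, lower under that p, Dntt and Rag1 (107.5 to 140.5 and 87.4 to 123.7 CPM summed). Among these lists, Alas2, Hba-a2, Slc4a1 and Cd3e were at 0 in every library. Of stromal and endothelial markers, 5 of 8 were tested, 4 were higher by sign and 2 of them, Cdh5 and Kdr, under that p (126 to 187 and 141 to 216.7 CPM summed). None of 7 megakaryocyte markers was under that p. The part of these cell types in the results was not tested, and in bulk samples fewer cells of a type and less RNA per cell cannot be told apart. Malonyl-CoA 4 lay far from the rest on the first principal component (63.3, with 48.9% of the variance), followed by control 4 (25.3). In control 5, the deviation of genes from their mean followed the GC share of the transcript (Spearman's rho across genes -0.757, and -0.083 to 0.529 in the other libraries). The genes examined had a median GC share of 53.8%, against 49.8% over all genes tested.

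No glycolytic or pentose phosphate gene differed between the groups at an adjusted p under 0.05 (0 of 32, edgeR quasi-likelihood test, Benjamini-Hochberg over 12696 genes), and none of all genes tested did (0%). By sign, 24 of the 32 genes were higher with malonyl-CoA and 8 were lower. Their median log2 fold change was 0.18, against 0.02 over all genes tested, of which 53.4% were higher. At an unadjusted p under 0.05, 4 genes were higher (Hk1, Hk2, Pfkl and Eno3), which is 12.5% of those tested against 5.43% of all genes. By the same measure 1 gene was lower (Ldhb), 3.13% against 4.1% of all genes. Hk2 and Eno3 were above every control in all 4 malonyl-CoA libraries (6.25% of the genes, against 3.21% of all genes tested), and none was below every control, against 2.93% of all genes. With GC content corrected in each library by offsets in the fit of the counts, the number of higher genes went from 24 to 19 of 32. The median log2 fold change of the 32 went to 0.04. None of the 32 was then higher at an unadjusted p under 0.05 (0%, against 2.96% of all genes tested). Ldhb was lower by that measure (3.13%, against 5.06% of all genes). DESeq2 called 82 genes (0.591% of 13871) and none of the 32. A fit with the replicate number as a block called 172 of 12696 genes, 1 of them in the set (Hk1). With GC correction as well, that fit called 27 genes and none of the set. The numbers were not taken as pairs, for the reason given in the closing section.

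**Figure D1:**
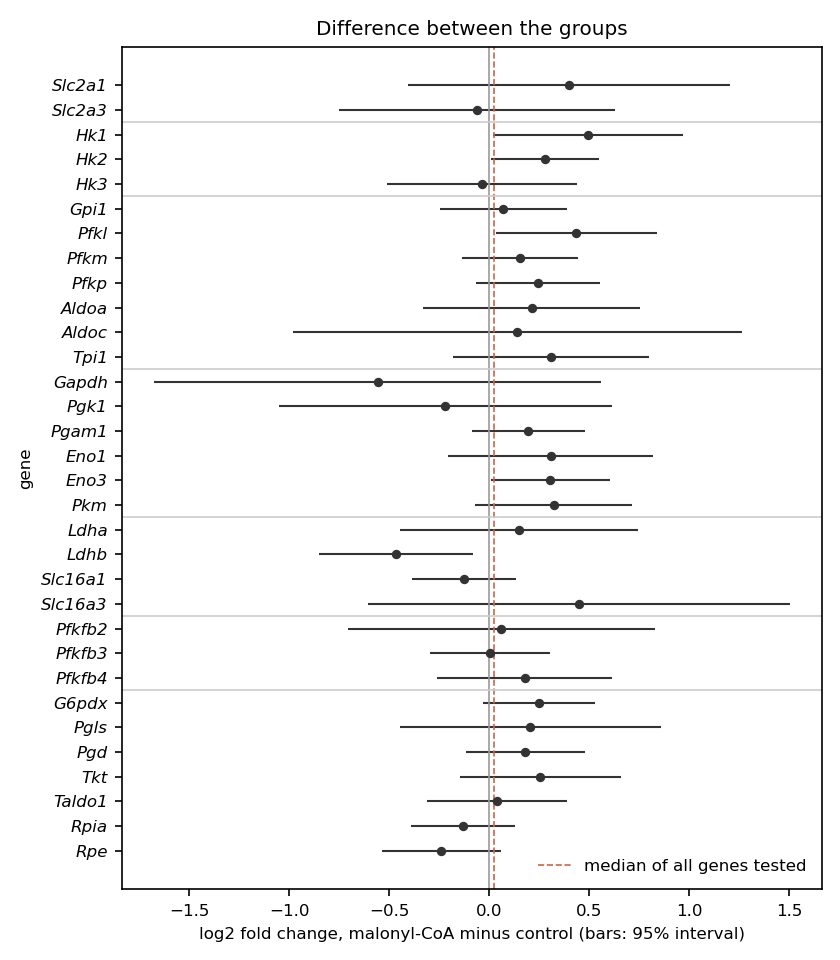
Log2 fold change of each of the 32 tested genes, malonyl-CoA minus control (points), with unadjusted 95% intervals (bars), in the order of the pathway; grey lines part the gene groups. Most points lie right of 0, the median of all genes tested is the dashed line at 0.02, and the intervals of Hk1, Hk2, Pfkl, Eno3 and Ldhb leave out 0.

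Several genes varied more among the libraries of a group than between the group means. Aldoc, Slc16a3, Slc2a1 and Pgk1 differed 2.48-fold or more between the highest and the lowest library of each group, and the lowest was number 4 in both. Number 4 was the lowest library of both groups for 11 of the 32 genes (34.4%), against 23.3% of all genes tested, and the highest of both for 4 (12.5% against 22.8%). The 11 genes were both glucose transporters, Pfkp, Aldoa, Aldoc and Tpi1 of upper glycolysis, Pgk1 and Pgam1 of lower glycolysis, Ldha, Slc16a3 and, of the pentose phosphate pathway, Rpe only. The 4 that were highest were Hk1, Ldhb, Pfkfb4 and Tkt. A list of 16 hypoxia-inducible factor genes and targets shared the low side, with 10 (62.5%) lowest in number 4 of both groups. Adm, among these 10, had at most 18 reads in any library.

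Some of these genes share a short letter string before their start. The string ACGTG is a form of the core of the hypoxia response element, and other forms were not searched. This string was searched on both strands (ACGTG and CACGT) in the 250 bases before each RefSeq start (build GRCm38.p6). It was present before 17 of the 49 starts of 33 of the 34 genes (34.7%), against 16.6% of 32851 mouse promoters of that length. Counted by gene, 13 of the 33 held it before any start (39.4%), against 18.5% of 27025 genes. The background was not matched for GC content or expression, so these shares do not single out the set. Of the 11 genes lowest in both number 4 libraries, 10 had an entry and 6 held the string (Slc2a1, Aldoa, Pgk1, Pgam1, Ldha and Slc16a3), and of the other 21 tested genes 7 did. The string overlaps the E-box CACGTG, which was before 10.2% of the starts and 6.02% of all promoters. A match describes letters and no site. Shown are 4 genes low in number 4 and, for contrast, Hk2, which was not low there, 5′ to 3′ on the gene's strand with matches in capitals. The windows are chr4:119108495-119108744 (plus strand) for Slc2a1, chrX:106186850-106187099 (plus) for Pgk1, chr7:46845554-46845803 (plus) for Ldha, chr11:120948817-120949066 (plus) for Slc16a3 and chr6:82774455-82774704 (minus) for Hk2.
Slc2a1: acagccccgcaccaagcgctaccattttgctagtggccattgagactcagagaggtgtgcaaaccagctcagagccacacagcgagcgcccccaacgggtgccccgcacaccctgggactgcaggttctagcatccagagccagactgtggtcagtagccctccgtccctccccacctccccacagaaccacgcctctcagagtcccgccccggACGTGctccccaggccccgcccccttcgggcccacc
Pgk1: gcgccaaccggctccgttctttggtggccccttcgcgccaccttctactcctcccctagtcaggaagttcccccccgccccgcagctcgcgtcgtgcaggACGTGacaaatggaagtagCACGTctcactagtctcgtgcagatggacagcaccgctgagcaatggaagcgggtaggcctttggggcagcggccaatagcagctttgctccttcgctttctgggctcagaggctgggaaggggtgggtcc
Ldha: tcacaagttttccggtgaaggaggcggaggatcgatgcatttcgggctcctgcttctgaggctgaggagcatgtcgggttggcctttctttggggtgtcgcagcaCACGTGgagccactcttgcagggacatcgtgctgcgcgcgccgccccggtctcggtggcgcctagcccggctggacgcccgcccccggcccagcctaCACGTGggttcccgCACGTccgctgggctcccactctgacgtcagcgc
Slc16a3: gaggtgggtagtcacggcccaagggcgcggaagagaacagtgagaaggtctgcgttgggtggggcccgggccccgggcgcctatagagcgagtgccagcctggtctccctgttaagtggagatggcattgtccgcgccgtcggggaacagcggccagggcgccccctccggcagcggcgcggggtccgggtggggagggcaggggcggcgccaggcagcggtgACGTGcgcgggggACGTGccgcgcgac
Hk2: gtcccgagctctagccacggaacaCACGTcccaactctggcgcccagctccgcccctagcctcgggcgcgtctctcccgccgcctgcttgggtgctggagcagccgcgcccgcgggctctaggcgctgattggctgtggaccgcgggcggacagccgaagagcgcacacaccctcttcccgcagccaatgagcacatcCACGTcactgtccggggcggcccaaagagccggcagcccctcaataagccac
Slc2a1 held 1 match, and Pgk1, Slc16a3 and Hk2 held 2 each. Ldha held 5, since each CACGTG reads as a match on both strands, and the second of its 2 starts held none. The bases right after the Ldha start shown were not found in a GENCODE transcript of the gene. Those after its second start were, as were those of the other genes shown. Aldoc, the gene with the widest spread in both groups, held none before either of its 2 starts.

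The low genes show the size of that spread. Aldoc, the brain-type aldolase, stood at 98.4, 156, 27.4 and 101 CPM in control and at 116, 142, 38.6 and 126 CPM with malonyl-CoA, so that number 4 was at 0.27 and 0.31 of the median of the other libraries of its group. Slc16a3, the exporter that clears lactate from glycolytic cells, stood at 215, 291, 59.2 and 134 CPM and at 301, 299, 99.6 and 255 CPM, and number 4 was at 0.28 and 0.33 of that median. Pgk1, phosphoglycerate kinase, the first ATP-yielding step, stood at 207, 277, 89.6 and 175 CPM and at 182, 172, 74.4 and 215 CPM, with ratios of 0.43 and 0.41. For each of these 3 genes both number 4 libraries were below all 6 others. Bnip3 and Egln3, hypoxia targets that act in mitochondrial clearance and in the hydroxylation of the factor, were picked after their values were seen. Bnip3 was at 0.20 and 0.32 of the other libraries' median, and Egln3 at 0.41 and 0.53. Of the 16 listed hypoxia genes, malonyl-CoA 4 was the lowest of its group for 11 (68.75%, against 39.3% of all genes). For 3 it was the highest (18.75%, against 41.1%). These were Vegfa, Kdm3a and Arnt, at 1.42, 1.38 and 1.08 of that median. Control 4 was the lowest control for 13 of the 16 and the highest for 0. Hif1a itself, the oxygen-controlled subunit, was at 0.94 of that median in both groups. Reads in no gene were at their highest in number 4 in each group (1.56% and 2.94% of tallied reads) and reads with several positions at their lowest (44.3% and 38.2%). Gene counts of the number 4 libraries, 20820218 and 21308153, were within the range of the others. The part of any of these in the low values was not tested. Without both number 4 libraries, 23 of the 32 genes were higher with malonyl-CoA by sign (median log2 fold change 0.19). At an unadjusted p under 0.05 in that fit, 6.25% were higher and 3.13% lower, against 9.41% and 7.41% of all genes.

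**Figure D2:**
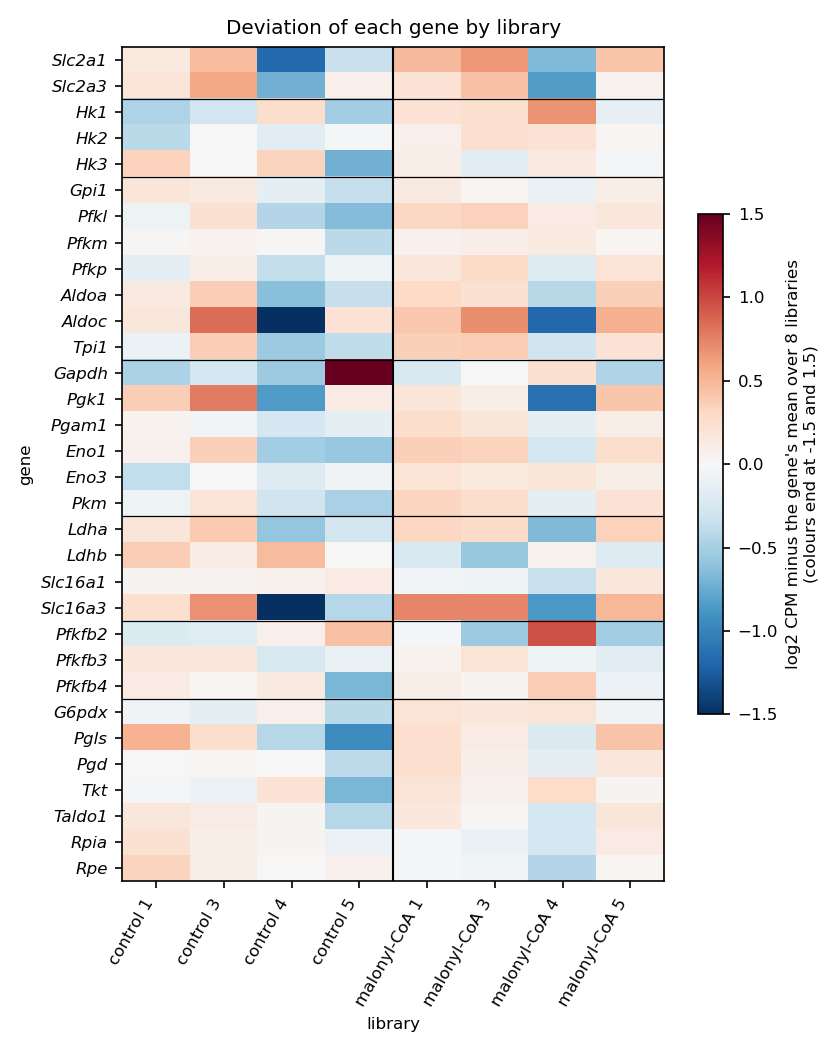
Deviation of log2 CPM from the gene's mean over the 8 libraries, for each of the 32 tested genes (rows, in pathway order with lines between groups) and each library (columns, controls left). Blue cells gather in control 4 and malonyl-CoA 4 for transporters, Aldoc, Pgk1 and Slc16a3, and in control 5 for many genes; the Gapdh cell of control 5 passes the colour range.

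**Figure D3:**
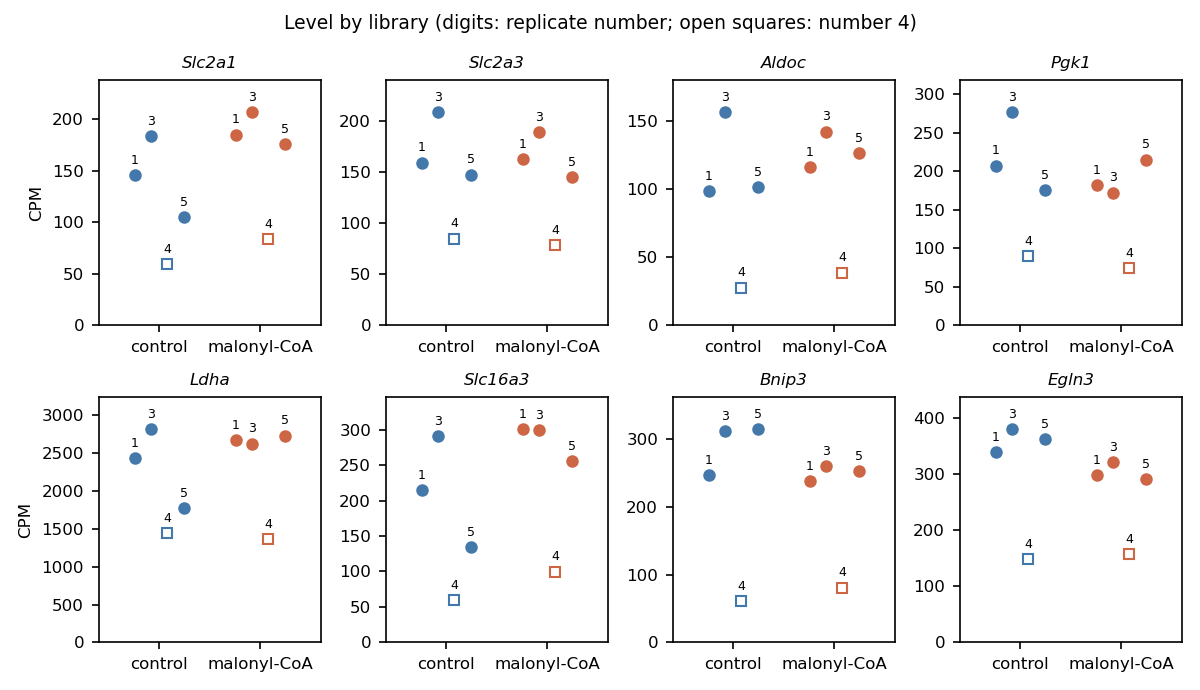
CPM of 6 of the glycolytic genes and of Bnip3 and Egln3 in each library (linear axis from 0), by group, with the replicate number above each point and number 4 as open squares. Number 4 is the lowest point of both groups in every panel.

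Control 5 was the second library that stood low. It was the lowest control for 15 of the 32 genes (46.9%), against 30.7% of all genes tested. Pgls, the lactonase of the pentose phosphate pathway with the highest GC share of the set (61.1%), stood at 245, 204, 127 and 89.0 CPM in control and at 204, 185, 147 and 230.4 CPM with malonyl-CoA. Pgd, the dehydrogenase that yields the second NADPH, stood at 403, 403, 400.1 and 305 CPM in the controls. The other 3 controls of Pgd thus lay within 4 CPM of each other. Without control 5, 21 of the 32 genes were higher with malonyl-CoA by sign and the median log2 fold change was 0.12. At an unadjusted p under 0.05 in that fit, 6.25% were higher and 3.13% lower, against 4.28% and 3.35% of all genes.

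Per kilobase of exon, the most abundant transcripts of the set were Aldoa, the general aldolase, at 705 ± 215 CPM per kb in control and 817 ± 178 with malonyl-CoA, and Ldha, the lactate-forming dehydrogenase, at 639.5 ± 188 and 709 ± 199 (SD, n = 4 each). In each group the means of these 2 genes lay within their summed SDs of each other. Those SDs are between libraries and do not compare the genes within a library. Within each library, Aldoa was above Ldha per kb. Pkm, pyruvate kinase, followed at 405 ± 85.15 and 507 ± 69.1 CPM per kb, then Tpi1, the triose isomerase, at 335 ± 96.85 and 414.5 ± 82.0. The group means of Pkm and Tpi1 also lay within their summed SDs of each other, though Pkm was above Tpi1 per kb within each library. Gpi1, the isomerase that follows hexokinase, was at 221 ± 36.0 and 232 ± 16.6 CPM per kb, and Taldo1, transaldolase of the pentose phosphate pathway, at 210 ± 36.2 and 215 ± 28.6. The means of these 2 again lay within their summed SDs, and only in control 4 was Taldo1 above Gpi1 per kb. The lowest tested gene was Pfkfb2 at 0.50 ± 0.110 and 0.518 ± 0.283 CPM per kb. Eno2 had 1 to 12 reads and Pklr 0 to 5. Pklr had no read in control 3, where 3 reads would be 0.161 CPM. For several genes the sequence is shared with other genes, and reads with several positions were not counted to genes. Of the 50-base windows of the principal transcript, 82.5% for Gapdh, 72.2% for Eno1, 68.0% for Pgk1, 41.5% for Pgam1, 30.5% for Pkm and 27.0% for Ldhb also occurred in other annotated genes. The levels of these genes are therefore uncertain. Gapdh, which encodes the dehydrogenase often used as a reference, had only 8.11 to 13.9 CPM in 7 libraries and 39.0 CPM in control 5.

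**Figure D4:**
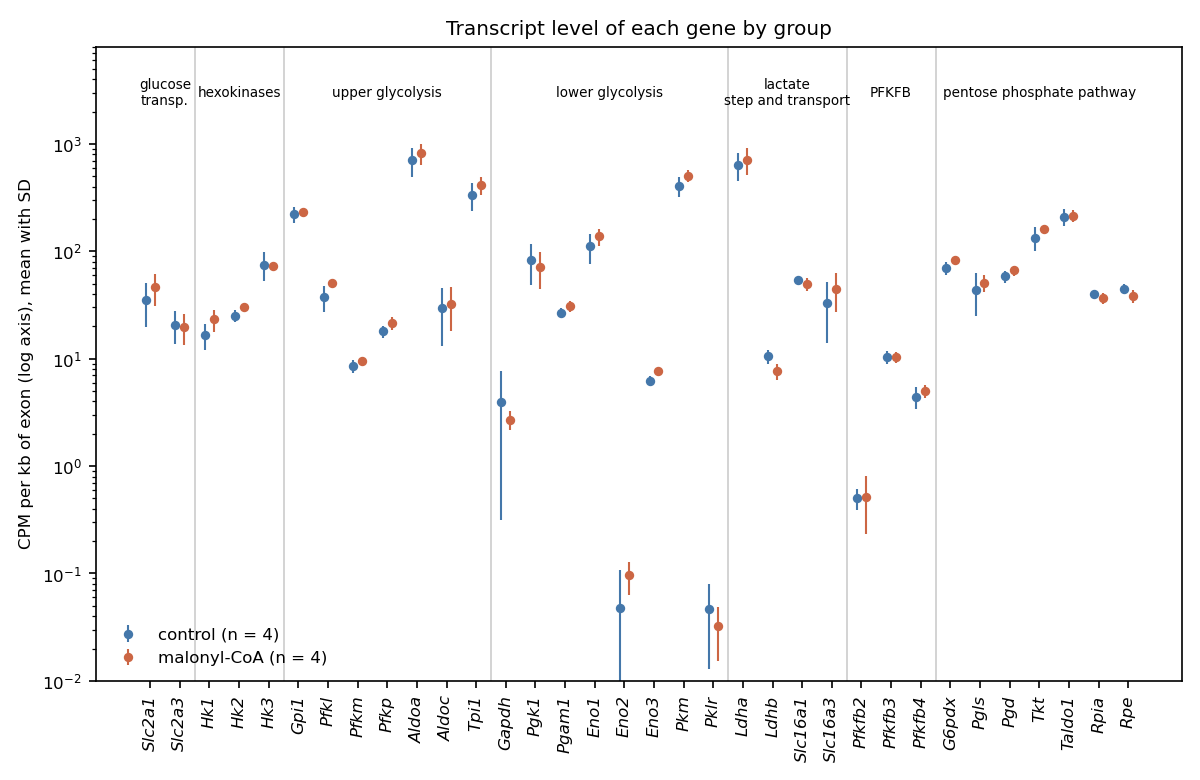
Mean CPM per kb of exon (log axis) of all 34 genes in control and malonyl-CoA, with SD over 4 libraries (bars; the lower bar is shortened where it would pass 0), in pathway order. Means run from 0.032 for Pklr to 817 for Aldoa, both with malonyl-CoA, and the bars of the groups overlap for most genes.

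The set held 2 glucose transporters, and Slc2a1 took the larger share of their summed CPM per kb of exon in every library. In the controls this lead rests on the division by exon length, 3.506 kb for Slc2a1 and 7.245 kb for Slc2a3. The principal transcripts are closer in length, 3260 bases for Slc2a1 and 3959 bases for Slc2a3. Shares by those lengths were not computed, so the lead in every control is stated for the exon lengths only. By CPM not divided by length, Slc2a3 was above Slc2a1 in every control and below it in every malonyl-CoA library. The difference in share between the groups did not pass adjustment. Slc2a1, the basal glucose carrier of most cells (ENSMUSG00000028645, chromosome 4, 119108711 to 119137983), stood at 146, 184, 59.1 and 105 CPM in control and at 185, 207, 83.6 and 176 CPM with malonyl-CoA. In malonyl-CoA 1 and 3 it was above every control, and the groups overlapped. Its log2 fold change was 0.40 (SE 0.36, adjusted p = 0.631 by edgeR). Slc2a3, the high-affinity carrier of neurons and white cells, stood at 159, 209, 84.6 and 148 CPM and at 163, 189, 78.3 and 145 CPM, a log2 fold change of -0.062 (SE 0.31, adjusted p = 0.940 by edgeR). Of the summed CPM per kb of both carriers, Slc2a1 took 65.4%, 64.5%, 59.1% and 59.5% in control and 70.2%, 69.4%, 68.8% and 71.5% with malonyl-CoA. All 4 malonyl-CoA libraries were above all controls, and the low number 4 libraries were no exception. The mean share went from 62.1% ± 3.32 to 69.96% ± 1.17 (SD, n = 4 each), a difference of 7.82 percentage points with a two-sided exact permutation p of 0.0286, the smallest that 4 against 4 libraries can give. Adjusted over the 9 isozyme and transporter families compared, p was 0.257, and a single family could not have passed. The difference was 5.61 points after GC correction.

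**Figure D5:**
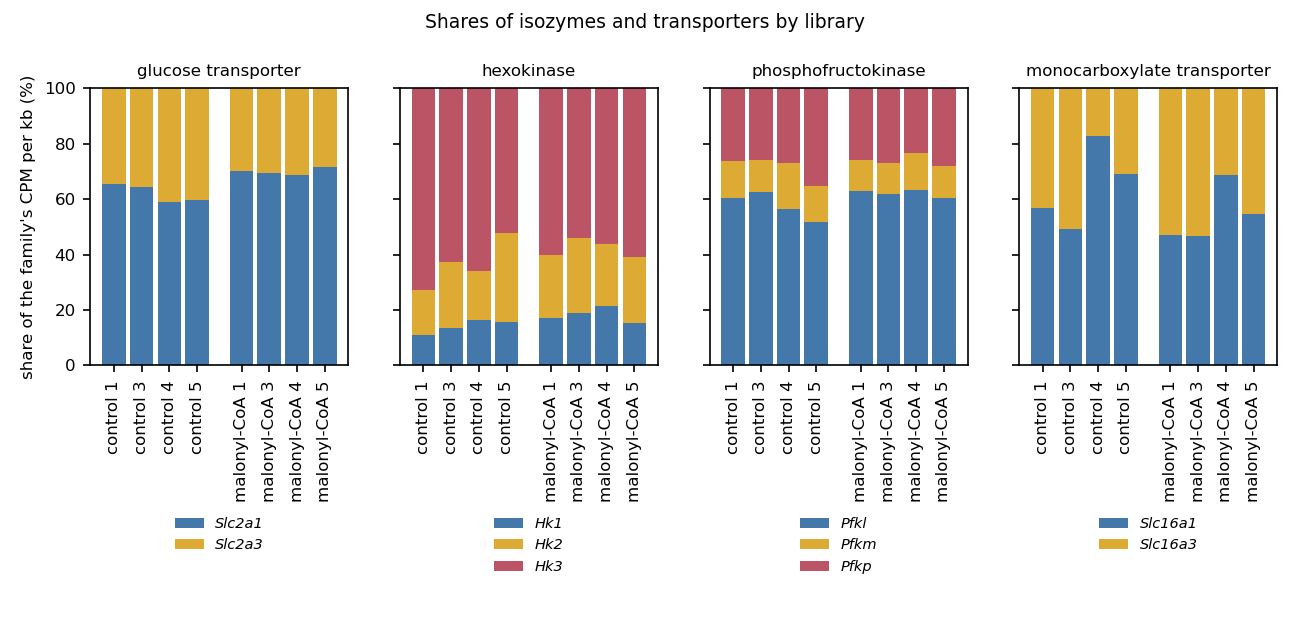
Share of the family's summed CPM per kb (%) taken by each gene in each library, for glucose transporters, hexokinases, phosphofructokinases and monocarboxylate transporters (stacked bars, controls left). The Slc2a1 bars of the 4 malonyl-CoA libraries, 68.8% to 71.5%, are all above the controls, 59.1% to 65.4%; the groups of the other 3 families overlap.

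Among the hexokinases, which trap glucose in the cell, Hk3, the isozyme of myeloid cells, led at 75.3 ± 22.6 CPM per kb against 73.4 ± 6.92 with malonyl-CoA (SD, n = 4 each). It stood at 339, 268, 339 and 163 CPM in control and at 287, 239, 295 and 261 CPM with malonyl-CoA. All malonyl-CoA values thus lay inside the range of the controls. Hk1, the general isozyme bound to mitochondria (ENSMUSG00000037012, chromosome 10, 62268855 to 62379908), stood at 119, 134, 196 and 114 CPM and at 190, 193, 260.4 and 150.4 CPM. Malonyl-CoA 4 alone was above every control, and control 4 lay within the malonyl-CoA group. Each malonyl-CoA library was above the control of the same number, though the numbers were not taken as pairs. Its log2 fold change was 0.49 (SE 0.21, unadjusted p = 0.0423, adjusted p = 0.515 by edgeR), or 1.41-fold, and 0.36 after GC correction. A fit with the replicate number as a block called Hk1 (adjusted p = 0.0481 by edgeR). The same fit with GC correction did not (adjusted p = 0.108 by edgeR). Hk2, the inducible isozyme of muscle and proliferating cells (ENSMUSG00000000628, chromosome 6, 82725025 to 82774454), stood at 124, 165, 147 and 162 CPM and at 173, 196, 191 and 167 CPM. Every malonyl-CoA library was above every control, with malonyl-CoA 5 and control 3 next to each other. Its log2 fold change was 0.28 (SE 0.12, unadjusted p = 0.0434, adjusted p = 0.515 by edgeR) and 0.16 after GC correction. Neither number 4 library was the lowest of its group for any hexokinase. The share of Hk2 in the family was 22.5% ± 7.16 and 24.0% ± 2.28 (SD, n = 4 each), with an exact permutation p of 0.686, or 0.882 adjusted.

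In upper glycolysis, 7 of 7 genes were higher with malonyl-CoA by sign (median log2 fold change 0.21), and 5 of 7 after GC correction (median 0.02). Pfkl, the liver-type phosphofructokinase and the leading one here (ENSMUSG00000020277, chromosome 10, 77986947 to 78010083), stood at 270, 334, 210.4 and 182 CPM in control and at 353, 362, 310 and 321 CPM with malonyl-CoA. Control 3 lay within the malonyl-CoA group. Its log2 fold change was 0.44 (SE 0.18, unadjusted p = 0.0367, adjusted p = 0.515 by edgeR), and 0.21 after GC correction. Pfkp, the platelet-type subunit, stood at 235, 277, 203 and 250 CPM and at 294, 318, 228 and 301 CPM. Malonyl-CoA 4 lay inside the control range and the other 3 above it, with a log2 fold change of 0.24 (SE 0.14, adjusted p = 0.524 by edgeR). Pfkm, the muscle-type subunit, was the least abundant, at 22.8 to 31.1 and 30.8 to 33.0 CPM. Tpi1 stood at 939.7, 1289, 689 and 767 CPM and at 1288, 1300.3, 816 and 1161 CPM. Only malonyl-CoA 3 was above every control, and its log2 fold change was 0.31 (SE 0.22, adjusted p = 0.562 by edgeR). Aldoa stood at 2356, 2770.1, 1396 and 1688 CPM and at 2631, 2522, 1610 and 2746 CPM, with a log2 fold change of 0.21 (SE 0.24, adjusted p = 0.702 by edgeR). GC correction turned the sign for Aldoa (-0.023) and Gpi1 (-0.076, from 0.071).

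In lower glycolysis, 4 of the 6 genes tested were higher by sign, with a median log2 fold change of 0.25 (0.09 after GC correction). Eno3, the muscle enolase (ENSMUSG00000060600, chromosome 11, 70657202 to 70662513), stood at 9.36, 11.99, 10.5 and 11.7 CPM in control and at 14.0, 13.3, 13.7 and 12.9 CPM with malonyl-CoA. The groups did not overlap, at a low level. Its log2 fold change was 0.31 (SE 0.13, unadjusted p = 0.0442, adjusted p = 0.515 by edgeR), and 0.13 after GC correction. The main enolase Eno1 was at 436 to 831 CPM in control and 540 to 832 CPM with malonyl-CoA, and its share of the enolases was 94.3% ± 1.76 and 94.5% ± 1.20 (SD, n = 4 each). Pkm stood at 2121, 2576, 1814 and 1593 CPM and at 2807, 2690.4, 2031 and 2612 CPM. Here 3 of 4 malonyl-CoA libraries were above all controls, with a log2 fold change of 0.32 (SE 0.18, adjusted p = 0.519 by edgeR). Pgam1, the mutase, stood at 58.9, 55.3, 47.6 and 51.6 CPM and at 68.0, 64.4, 51.2 and 60.7 CPM. Again 3 of 4 were above all controls, and its log2 fold change was 0.20 (SE 0.13, adjusted p = 0.543 by edgeR). Pgk1 and Gapdh were lower by sign, at log2 fold changes of -0.22 and -0.56 (adjusted p = 0.799 and 0.629 by edgeR). The Gapdh difference rested on control 5, and without that library it was 0.34 in the other direction.

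At the lactate step, Ldhb, the subunit that favours the return of lactate to pyruvate (ENSMUSG00000030246, chromosome 6, 142490249 to 142507957), had the smallest p of the set. It stood at 17.9, 15.1, 19.3 and 13.9 CPM in control and at 11.8, 9.38, 14.4 and 12.2 CPM with malonyl-CoA, and 3 of the 4 malonyl-CoA libraries were below every control. Its log2 fold change was -0.47 (SE 0.17, unadjusted p = 0.0224, adjusted p = 0.502 by edgeR), and -0.58 after GC correction. Ldha stood at 2436, 2815, 1439 and 1777 CPM and at 2669, 2624, 1363 and 2731 CPM, a log2 fold change of 0.15 (SE 0.27, adjusted p = 0.810 by edgeR). Ldha therefore took nearly all of the family in both groups, 98.2% ± 0.70 and 98.8% ± 0.66 of the summed CPM per kb (SD, n = 4 each), with an exact permutation p of 0.286, or 0.514 adjusted. Slc16a1, the widely expressed carrier of lactate and pyruvate, stood at 234, 235, 238 and 248 CPM and at 221, 218, 181 and 254 CPM. Its controls were the closest together of all 32 genes, with a highest over lowest of 1.06, and its log2 fold change was -0.13 (SE 0.12, adjusted p = 0.632 by edgeR). For Slc16a3 the log2 fold change was 0.45 (SE 0.47, adjusted p = 0.674 by edgeR). The share of Slc16a1 in the pair was 64.5% ± 14.7 and 54.2% ± 10.3 (SD, n = 4 each), with an exact permutation p of 0.229, or 0.514 adjusted.

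The PFKFB enzymes make and remove fructose 2,6-bisphosphate, the main activator of phosphofructokinase. Pfkfb3, the inducible form that favours synthesis, led with 86.6, 86.7, 65.6 and 72.2 CPM in control and 80.2, 89.3, 73.8 and 68.6 CPM with malonyl-CoA. The group means were 77.8 ± 10.6 and 78.0 ± 8.93 CPM (SD, n = 4 each), and the 95% interval of the log2 fold change of 0.0044 ran from -0.30 to 0.30. Pfkfb4 stood at 24.5, 23.1, 24.7 and 14.0 CPM and at 23.9, 23.2, 29.2 and 21.2 CPM, with control 5 apart from the other controls (log2 fold change 0.18, SE 0.20, adjusted p = 0.689 by edgeR). Pfkfb2, the heart-type form, stood at 3.02, 3.07, 3.68 and 4.74 CPM and at 3.46, 2.39, 6.74 and 2.42 CPM. Malonyl-CoA 4 was the highest library for it, and the log2 fold change of 0.061 (SE 0.34, adjusted p = 0.949 by edgeR) was -0.40 without that library.

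In the pentose phosphate pathway, 5 of 7 genes were higher by sign, at a median log2 fold change of 0.18, and 3 of 7 after GC correction, at a median of -0.084. The oxidative branch, which makes NADPH, held the smallest p. G6pdx, its entry enzyme (ENSMUSG00000031400, chromosome X, 74409483 to 74429194), stood at 227, 212, 249 and 178 CPM in control and at 271, 263, 269.8 and 227 CPM with malonyl-CoA. Here 3 of 4 malonyl-CoA libraries were above all controls, and the log2 fold change was 0.25 (SE 0.13, unadjusted p = 0.0744, adjusted p = 0.515 by edgeR), or 0.17 after GC correction. Exons of Ikbkg on the opposite strand overlap 13.6% of its exon length, and the strand setting of the counter is not given in the sources used here. Pgd and Pgls had log2 fold changes of 0.18 and 0.21 (adjusted p = 0.570 and 0.757 by edgeR), the latter -0.11 after GC correction. In the non-oxidative branch, which links ribose to glycolysis, Tkt, transketolase, stood at 1049, 1002, 1245 and 663 CPM and at 1218, 1119.9, 1291 and 1099 CPM. Control 5 was the low value, and the log2 fold change was 0.26 (SE 0.18, adjusted p = 0.558 by edgeR). Taldo1 stood at 513, 499.7, 469 and 341 CPM and at 509, 463, 382 and 517 CPM, a log2 fold change of 0.037 (SE 0.16, adjusted p = 0.926 by edgeR). Rpia and Rpe, the isomerase and the epimerase of ribulose 5-phosphate, were the 2 lower ones by sign. Rpe stood at 162, 136, 127 and 134 CPM and at 125, 124, 94.2 and 130.2 CPM, so that 3 of 4 malonyl-CoA libraries were below all controls (log2 fold change -0.24, SE 0.13, adjusted p = 0.519 by edgeR). Rpia had a log2 fold change of -0.13 (SE 0.12, adjusted p = 0.631 by edgeR).

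Genes around these pathways were listed by function, and none passed the adjusted threshold. Of 22 other genes around glycolysis, 16 were tested, and 7 were higher and 9 lower by sign. Fbp1, the gluconeogenic phosphatase that reverses the phosphofructokinase step, stood at 5.53, 5.11, 6.99 and 5.26 CPM in control and at 3.65, 2.49, 4.02 and 2.90 CPM with malonyl-CoA. All malonyl-CoA values were below all controls, with a log2 fold change of -0.80 (SE 0.20, unadjusted p = 0.00272, adjusted p = 0.352 by edgeR), and -0.91 after GC correction. Slc16a7, a further pyruvate and lactate carrier, was at 29.95 to 34.6 CPM in control and 25.2 to 26.4 CPM with malonyl-CoA, without overlap (log2 fold change -0.32, SE 0.11, adjusted p = 0.447 by edgeR, and -0.21 after GC correction). Slc2a6, a lysosomal hexose carrier, was at 57.0, 78.3, 32.8 and 31.2 CPM and at 98.7, 98.2, 49.1 and 97.0 CPM (log2 fold change 0.78, SE 0.33, adjusted p = 0.515 by edgeR, and 0.54 after GC correction). Malonyl-CoA 4 alone overlapped the controls for that gene. With malonyl-CoA its mean was above that of Slc2a3 per kb of exon (26.7 and 19.8 CPM per kb). It was below Slc2a3 by CPM not divided by length (85.7 and 143.7 CPM). Mpc2, a subunit of the mitochondrial pyruvate carrier, had a log2 fold change of -0.41 (SE 0.23, adjusted p = 0.519 by edgeR). Of 8 other genes around the pentose phosphate pathway, 7 were tested, and 2 were higher and 5 lower by sign. Prps2 and Prps1, which turn ribose 5-phosphate into the nucleotide precursor, had log2 fold changes of -0.31 and -0.29, H6pd, the dehydrogenase of the endoplasmic reticulum, 0.26, and Rbks, ribokinase, -0.21 (adjusted p = 0.515 to 0.571 by edgeR). Of the 16 hypoxia-inducible factor genes and targets, 7 were higher and 9 lower by sign. Vegfa, the vascular growth factor, was at 55.1 to 66.2 CPM in control and 69.5 to 98.97 CPM with malonyl-CoA, without overlap (log2 fold change 0.39, SE 0.14, adjusted p = 0.502 by edgeR). Its highest value was that of malonyl-CoA 4. The log2 fold change of Vegfa was 0.21 after GC correction and 0.21 without both number 4 libraries. Mxi1 was lower without overlap, and Car9 and Ddit4 overlapped (log2 fold changes -0.23, -0.34 and 0.18, adjusted p = 0.515, 0.515 and 0.712 by edgeR). After GC correction Mxi1 was at -0.28 and Car9 at -0.50, and Ddit4 turned to -0.097.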

How the data were processed

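RNA-seq counts of 4 control and 4 malonyl-CoA libraries were used, grouped by sample title. The authors deposited raw counts per Ensembl gene, and the submitters' processing notes name HTSeq 0.6.1, STAR 2.5.2b, cutadapt 1.8 and build GRCm38. Neither the annotation release nor the counter's strand setting is given in these sources, so counts of overlapping genes are uncertain. Counter classes that name no gene were left out of library sizes: no feature (1.11% to 2.94% of tallied reads), ambiguous (0.715% to 0.891%) and several positions (38.2% to 51.1%). Symbols, coordinates and exon lengths came from GENCODE M21, which held 48349 of 48709 gene IDs, and promoters from RefSeq (GRCm38.p6).

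The test was edgeR 4.0.16 in R 4.3.3: filterByExpr (minimum count 10, total 15), TMM factors, robust glmQLFit and two-sided glmQLFTest with no covariate, adjusted over 12696 genes at a threshold of 0.05. A standard error is |log2 fold change| divided by the root of the F statistic. Intervals are 95% and unadjusted. Isozyme shares used exact permutation tests over 70 splits. Counts limit precision by counting error only at low levels. Alternatives were RLE factors, library size only, other filters, the replicate block, corrections for GC and length (loess, span 0.5), left-out libraries, DESeq2 1.42.0 and limma-voom (limma 3.58.1). The legacy edgeR fit was added after seeing the data. The genes and lists were chosen with earlier results of these data known. By rule, up to 3 genes per group with the smallest p, the most abundant one and up to 4 per further list are given in full.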

Additional observations from a re-analysis of the deposited data

Results flagged for a closer look

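In groups of 4 libraries, a value was singled out where its gap to the nearest other library, over the group's range, was above Dixon's 95% critical value. Of 82 groups examined (the CPM of 32 genes and 9 isozyme shares, in 2 groups), 8 were singled out, and chance gives about 1 in 20. Control 5 was far below the other controls for Pfkm (22.8 CPM against 30.4 to 31.1), Pfkfb4 (14.0 against 23.1 to 24.7) and Pgd (305 against 400.1 to 403). It was far above them for Gapdh (39.0 CPM against 8.11 to 9.90). Malonyl-CoA 4 was far below its group for Ldha (1363 CPM against 2624 to 2731) and Rpe (94.2 against 124 to 130.2). In the same library the Ldha share of the lactate dehydrogenases (97.8% against 99.1% to 99.3%) and the Eno1 share of the enolases (92.7% against 94.99% to 95.1%) were below the other 3. No cause was tested.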

How the results depend on the processing

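Precision was limited by the spread among 4 libraries a group, and by few reads for Eno2 and Pklr. Over all genes, 0 were called in edgeR (690 higher and 520 lower at an unadjusted p under 0.05), 0 with each library or same-numbered pair left out, 1 with no low-count filter and 82 by DESeq2. With the replicate number as a block, 172 genes and 1 of the set were called, Hk1 (log2 fold change 0.50, adjusted p = 0.0481 by edgeR), and with the block and GC correction 27 genes and none of the set (Hk1 at 0.36, adjusted p = 0.108 by edgeR). At an unadjusted p under 0.05 with the block, 11 of 32 genes of the set were higher (34.4%, against 15% of all genes) and 2 lower (6.25%, against 10.5%). No other of 24 alternative fits called a gene of the set. Deviations of same-numbered libraries correlated at 0.43, 0.43, 0.75 and 0.052 for numbers 1, 3, 4 and 5, so the numbers were not taken as pairs, and not every library correlated best with its own number. Of 1056 alternative fold changes of named genes, 997 kept their direction and their side of the threshold and 58 changed sign. Of 106 alternative share differences, 92 kept their direction and 14 changed sign. Their side of the threshold says little, since a single family could not have passed after adjustment. The cause of the changes was not tested.

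The median log2 fold change of the pentose phosphate genes was -0.084 with GC correction, -0.081 with the block as well, and -0.098 to 0.21 with libraries left out. GC correction gave Gpi1 -0.076, Aldoa -0.023, Pfkfb3 -0.089, Pgls -0.11, Taldo1 -0.084 and Ddit4 -0.097. With length corrected too, Gpi1 was at -0.12, Pfkfb3 at -0.17, Pgls at -0.085 and Taldo1 at -0.0050. The block with GC correction gave Gpi1 -0.072, Aldoa -0.014, Pfkfb3 -0.086, Pgls -0.081, Taldo1 -0.089 and Ddit4 -0.055. Hk3 was at 0.014 with the block, 0.0021 without TMM factors and 0.017 in limma-voom, which gave Pfkfb2 -0.051. Without control 5 and malonyl-CoA 4, Slc2a3 was at 0.13, Gapdh at 0.21, Pfkfb2 at -0.24, Pfkfb3 at -0.0040 and Pfkfb4 at -0.083. Leaving out libraries moved Slc2a3 from -0.26 to 0.14, Hk3 from -0.22 to 0.076, Gpi1 from -0.034 to 0.15, Aldoc from -0.17 to 0.48, Gapdh from -0.91 to 0.44, Pgk1 from -0.45 to 0.031 and Ldha from -0.0012 to 0.33. It moved Pfkfb2 from -0.40 to 0.37, Pfkfb3 from -0.068 to 0.061, Pgls from -0.098 to 0.45 and Taldo1 from -0.12 to 0.13. Among shares, in percentage points, the Aldoa difference was -0.19 with GC correction, -0.15 with length as well, -0.80 without control 5 and malonyl-CoA 4, and -0.37 to 0.84 with libraries left out. The Eno1 difference was -0.41 with GC and length correction and -0.46 to 0.79 with libraries left out, that of Hk2 -0.47 to 4.75, and that of Pfkfb3 1.53 without control 5 and malonyl-CoA 4.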
